A study of Mus musculus with 44 samples.

Results

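The mitochondrial genome transcripts measured here were 37 of the 55335 genes in the count table: 13 protein-coding genes, 2 ribosomal RNA (rRNA) genes and 22 transfer RNA (tRNA) genes. They were taken as every gene whose identifier maps to a symbol starting with mt- in the GENCODE annotation of mouse build GRCm38, a rule that uses no measured value, although the set was picked for description with earlier results of these data known. All 37 lie on the mitochondrial chromosome, from mt-Tf at chrM:1-68 to mt-Tp at chrM:15356-15422.

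The mitochondrial genome is a small circle that is transcribed on both strands into long precursor RNAs, and the tRNAs that punctuate it are cut out to release the rRNAs and mRNAs between them. Its mRNAs encode core subunits of respiratory complexes I, III, IV and V and are translated by the organelle's own ribosomes, and most of them carry short poly(A) tails. The other subunits of the same complexes are made from nuclear genes on cytosolic ribosomes, and neurons depend on both sets for the ATP that drives ion pumping and synaptic transmission.

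The 20 libraries are poly(A)-selected TRAP-seq libraries (translating ribosome affinity purification, in which a GFP-tagged ribosomal protein is pulled down with the RNA bound to it) from the hippocampus of male Emx1-NuTRAP mice. In these mice Emx1-Cre switches on the tag mainly in excitatory neurons, and also in neural progenitors. Early-life exercise (ELE) mice had a running wheel from postnatal day 21 to 41, and sedentary mice were housed for the same days without one. In the simultaneous isolation (SIT) both hippocampi of a mouse were homogenised together and nuclei were removed before TRAP, whereas in the separate isolations TRAP was run on the left or the right hippocampus alone. The groups held 4 SIT ELE, 4 SIT sedentary, 3 left ELE, 3 left sedentary, 3 right ELE and 3 right sedentary libraries, 1 mouse each, which are called here by the mouse numbers in the table (NT6.303 and so on). The 2 SIT sedentary libraries NT7.2.3 and NT7.2.4 stood apart and were left out of the main comparisons, so that 18 libraries remained. The study itself left out 2 sedentary samples and 1 ELE sample as outliers, whereas all 4 SIT ELE libraries are kept here. Library totals ran from 45895097 to 65767802 counts. The markers of excitatory forebrain neurons, such as Slc17a7 and Camk2a, summed to between 11447 and 17007 CPM (counts scaled to the same total in every library) in the 20 libraries, with none of the 10 at 0.

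Stretches of sequence that bear on how reads are assigned to the members are given first, all from GENCODE transcripts on GRCm38. Of the 9 pairs of neighbouring members whose coordinates overlap, 6 share only 1 to 3 bases, 5 of these with a tRNA in the pair and the other between mt-Atp6 and mt-Co3. The 3 longer overlaps are all between mRNAs. The last 43 bases of mt-Atp8 are also the first of mt-Atp6, the last 7 bases of mt-Nd4l are the first of mt-Nd4, and mt-Nd5 and mt-Nd6 end over the same 14 base pairs on opposite strands. Capitals mark the shared bases in these last stretches of mt-Atp8 (chrM:7897-7969), mt-Nd4l (chrM:10134-10173) and mt-Nd5 (chrM:13522-13565), all on the plus strand.
mt-Atp8: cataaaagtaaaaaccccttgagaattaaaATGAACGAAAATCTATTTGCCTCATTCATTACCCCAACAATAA
mt-Nd4l: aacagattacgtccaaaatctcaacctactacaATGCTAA
mt-Nd5: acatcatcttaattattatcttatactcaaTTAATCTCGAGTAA
In each of these pairs a read inside the capitals could belong to either gene, and only for mt-Nd5 and mt-Nd6 does its strand separate them.

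A second source of ambiguity lies in the nuclear genome. A block on chromosome 1, spanning chr1:24611535-24616197 on the minus strand, holds near-identical copies of 7 of the 13 protein-coding members, each annotated as a gene of its own. The copies of mt-Co2, mt-Atp6, mt-Co3, mt-Nd4l and mt-Nd4 matched their member without a mismatch over 294 to 876 bases, which is at least 98.99% of the member except for mt-Nd4, where the copy covers 63.6%. The copies of mt-Co1 (Gm29216, the last 483 bases of the member) and mt-Nd3 (Gm28438, 345 bases) each differed from it at a single base. The stretches around those differences are given with the differing base in capitals, for mt-Co1 at chrM:6390-6423 and mt-Nd3 at chrM:9459-9491 on the plus strand, and for Gm29216 at chr1:24616155-24616188 and Gm28438 at chr1:24613087-24613119 on the minus strand.
mt-Co1: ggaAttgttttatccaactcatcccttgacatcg
Gm29216: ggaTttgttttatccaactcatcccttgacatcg
mt-Nd3: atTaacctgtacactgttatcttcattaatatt
Gm28438: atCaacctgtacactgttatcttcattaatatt
Counted from the first base of the member and with the member's base first, the differences are A1066T in mt-Co1 and T3C in mt-Nd3. Reads from within the copied stretches that miss these bases fit both places equally well.

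The counts on the copies followed those on the members in all 20 libraries. The median ratio of copy to member counts was 0.995 for mt-Co2, 0.996 for mt-Co3 and 1.002 for mt-Nd4l. It was 0.975 for mt-Nd3, 1.28 for mt-Atp6, 0.303 for mt-Nd4 and 0.150 for mt-Co1. For mt-Co2 the ratio lay between 0.942 and 1.04 in every library, over counts that themselves ran from 1658 to 277376. It was less constant for other members. The ratio of mt-Nd3 ran from 0.804 to 1.23, and that of mt-Co1 was 0.117 in NT7.2.3 and NT7.2.4 against 0.139 to 0.170 in the other libraries. Together the copies held between 0.223 and 0.251 counts for each count on the 37 members. Levels compared between members, and the share of the set as a whole, are therefore uncertain by about the counts on the copies, whereas ratios of 1 member between libraries are not moved by a constant split. The tests, shares, compositions and levels per kilobase below were also computed with the copies' counts added to their members.

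**Figure D1:**
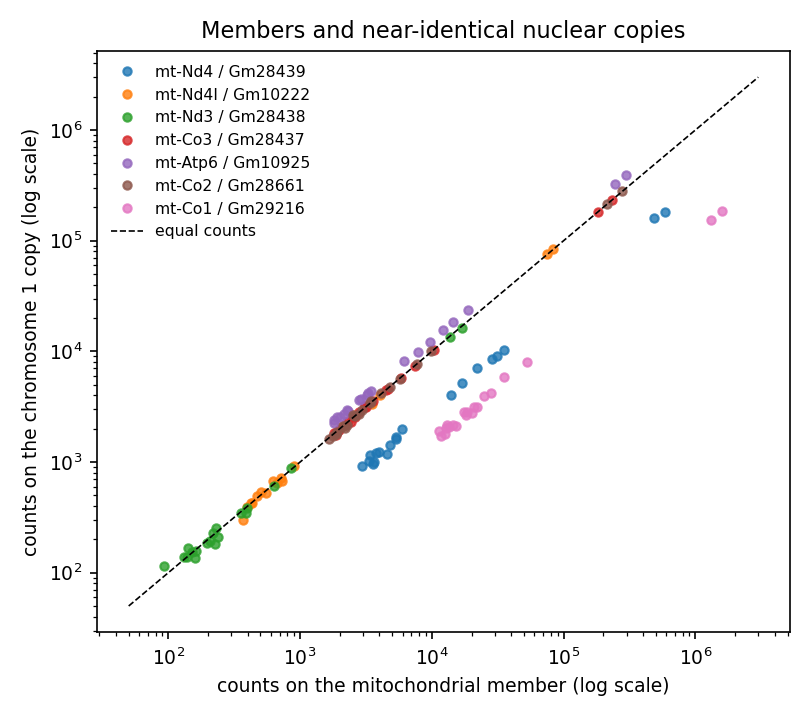
Counts on each of 7 mitochondrial members (x axis, log scale) against counts on its near-identical chromosome 1 copy (y axis, log scale), 1 point per library and pair, with a dashed line at equal counts. The points of mt-Co2, mt-Co3, mt-Nd3 and mt-Nd4l lie along the line, those of mt-Atp6 above it, and those of mt-Nd4 and mt-Co1 below it, over the whole range of counts.

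The set as a whole took a larger share of the counts in SIT than in separate isolations. Of all gene counts, the 37 members held 0.255% in NT6.303, 0.195% in NT6.304, 0.368% in TG7.4.1 and 0.523% in TG7.4.2, the 4 SIT ELE libraries. In the SIT sedentary libraries the share was 0.426% in NT6.305 and 0.245% in NT6.306, and in the 2 libraries set apart 8.64% (NT7.2.3) and 9.64% (NT7.2.4). In the 12 separate libraries it ran from 0.0704% to 0.122%, with a median of 0.0892%. The lowest of the 6 SIT libraries was 1.60 times the highest separate library, so these groups did not overlap, and the mean share was 0.335% ± 0.126 (SD, n = 6) in SIT against 0.0913% ± 0.0144 (SD, n = 12) in separate isolations. Counting error was small beside these spreads, with a 95% Wilson interval of 0.194% to 0.196% for the lowest SIT library and 0.121% to 0.123% for the highest separate one. Within an isolation the exercise groups overlapped. Left ELE libraries held 0.0957%, 0.122% and 0.0750%, left sedentary 0.103%, 0.103% and 0.0704%, right ELE 0.0783%, 0.102% and 0.0856%, and right sedentary 0.0892%, 0.0892% and 0.0834%. In bulk RNA of this kind, fewer cells carrying an RNA and less of it per cell cannot be told apart. With the counts on the chromosome 1 copies added, the share was 0.241% to 0.651% in the 6 SIT libraries and 0.0878% to 0.151% in the separate ones.

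**Figure D2:**
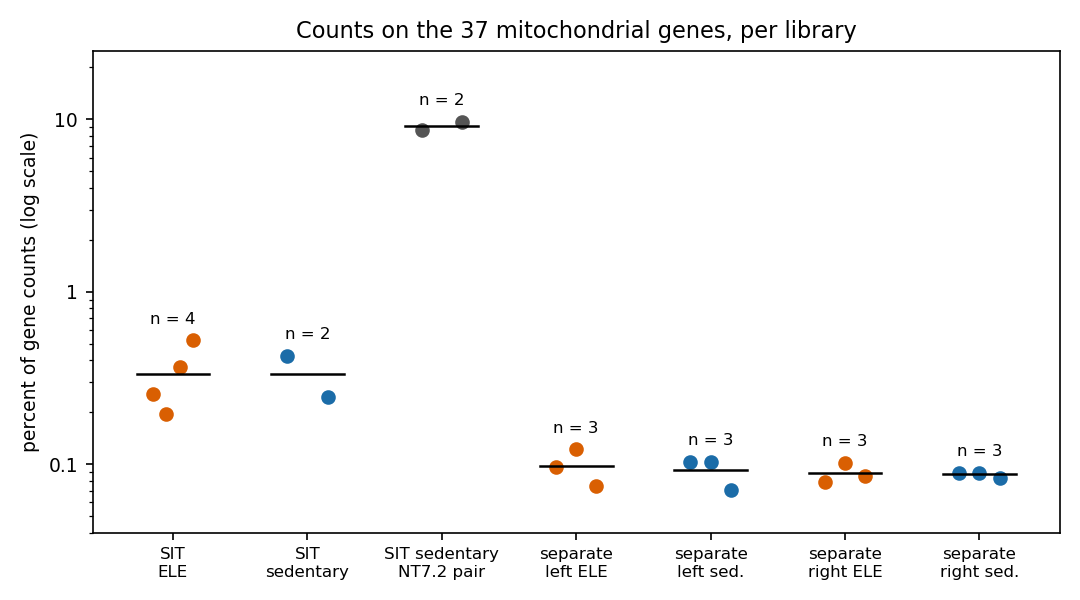
Percent of all gene counts on the 37 mitochondrial genes (y axis, log scale), 1 point per library (orange ELE, blue sedentary, grey the 2 libraries set apart) with black lines at group means. The 6 SIT libraries sit between 0.195% and 0.523%, above all 12 separate libraries, and NT7.2.3 and NT7.2.4 sit at 8.64% and 9.64%.

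Most of these counts were on the mRNAs. The 13 protein-coding members held 87.5% to 95.4% of the set's counts in the 20 libraries, and the 2 rRNAs, mt-Rnr1 (chrM:70-1024, 12S) and mt-Rnr2 (chrM:1094-2675, 16S), held 4.26% to 12.4%. Per 100 mRNA counts there were 4.47 to 8.07 rRNA counts in the 6 SIT libraries, 9.59 and 10.3 in the NT7.2 pair and 9.0 to 14.2 in the separate libraries, so that SIT did not overlap with either. The ratio of mt-Rnr2 to mt-Rnr1 counts ran from 1.23 to 1.54 in SIT, 1.405 to 1.501 in the pair and 1.34 to 1.78 in separate isolations. That ratio overlapped between all of them.

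On the scale of CPM per kilobase of gene length, the member with the highest mean in SIT was mt-Nd1 (complex I, chrM:2751-3707) at 461 ± 163 (SD, n = 6), followed by mt-Cytb (the mitochondrially encoded subunit of complex III, chrM:14145-15288) at 413 ± 149 and mt-Co1 (catalytic subunit of complex IV, chrM:5328-6872) at 371 ± 155. These 3 means differed by less than the spread between libraries, and the order holds only with the counts on the chromosome 1 copies left out. With the copies added, mt-Atp6 (complex V, chrM:7927-8607) came first in SIT at 728 ± 297, ahead of mt-Nd1 at 461 and mt-Nd4 at 441 ± 151, with mt-Co1 at 428 ± 179 above mt-Cytb at 413. In separate isolations the order of the first 3 began with mt-Co1 at 176 ± 26.6 (SD, n = 12), ahead of mt-Nd1 at 117 ± 18.9 and mt-Cytb at 71.9 ± 15.8, and with the copies added with mt-Co1 at 203 ± 30.6, ahead of mt-Atp6 at 151 ± 32.7 and mt-Co2 at 122 ± 19.4. mt-Nd3, a small complex I subunit, was the lowest of the 15 mRNAs and rRNAs in every library, with and without the copies, at 26.0 ± 12.7 in SIT and 8.90 ± 1.95 in separate isolations without them. mt-Nd6, the only mRNA member on the minus strand, had 0.170 to 0.263 counts for each count on its plus-strand neighbour mt-Nd5 over the 20 libraries, with SIT at 0.201 to 0.263 and separate isolations at 0.170 to 0.247.

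The members did not take part equally in the difference between isolations, and the change was most visible in complex IV. mt-Co1 held 15.1% to 20.7% of the 13-mRNA counts in the 6 SIT libraries and 29.2% to 36.8% in the 12 separate libraries, without overlap. The counts of all 3 complex IV members together (mt-Co1, mt-Co2 and mt-Co3) made up 21.3% to 28.6% in SIT and 38.8% to 49.4% in separate isolations, with 38.8% and 40.04% in the NT7.2 pair. The 7 complex I members made up 47.7% to 53.6% in SIT against 35.5% to 43.2% in separate isolations and 38.97% and 40.35% in the pair. The complex III member mt-Cytb was at 14.0% to 16.4%, 8.46% to 11.5%, and 13.2% and 13.3%, in the same order. The complex V members mt-Atp8 and mt-Atp6 came to 8.71% to 9.77% in SIT, 6.51% to 8.08% in separate isolations and 7.66% and 7.73% in the pair. SIT and separate libraries thus did not overlap in any of the 4 complexes, and neither did they with the copies added, where complex IV held 24.1% to 31.5% in SIT and 42.0% to 52.5% in separate isolations. The percentages of the complexes, and of the single members below, are parts of the same counts. A lower part for complex IV raises the others, so they are not separate results.

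Of the 13 members one by one, 3 (mt-Co1, mt-Co2 and mt-Co3) had a lower percentage in every SIT than in every separate library, 5 (mt-Nd2, mt-Nd4, mt-Nd4l, mt-Cytb and mt-Atp6) had a higher one, and 5 overlapped. The counts of mt-Co1 per mt-Cytb count were 0.918 to 1.48 in SIT, 2.26 and 2.29 in the NT7.2 pair and 2.62 to 4.35 in separate isolations. The pair had its mean between those of SIT and separate isolations for 12 of the 13 members. The exception was mt-Nd1, at 10.3% and 10.7% in the pair and between 12.9% and 15.3% in the other 18 libraries.

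**Figure D3:**
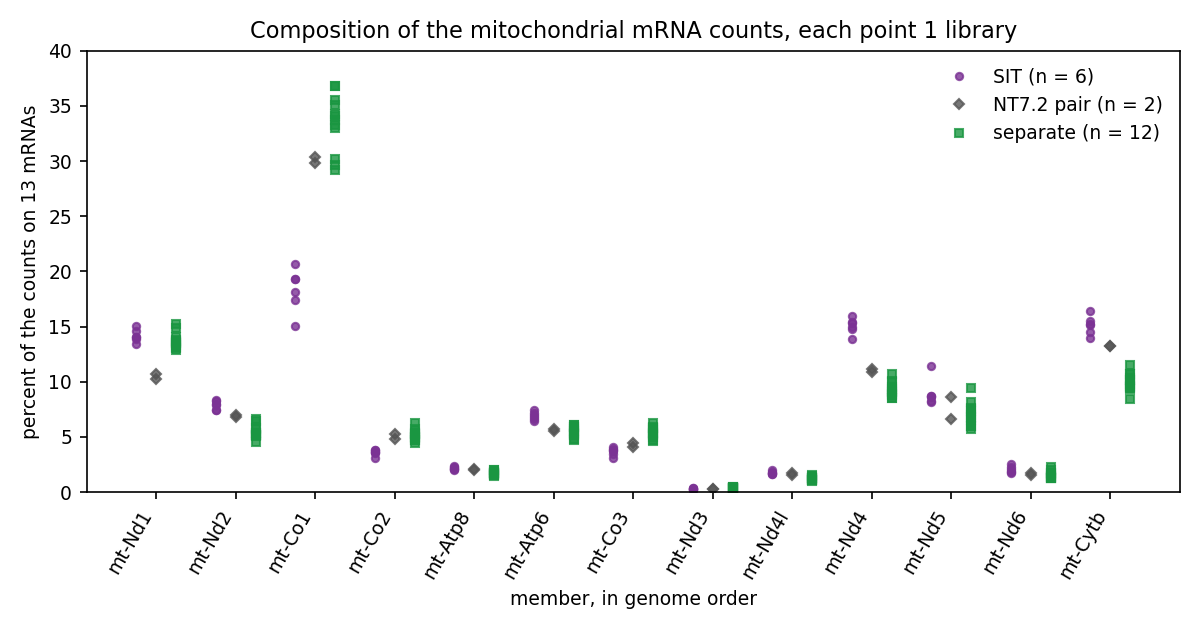
Percent of the counts on the 13 mitochondrial mRNAs (y axis) held by each of them in genome order (x axis), 1 point per library (violet circles SIT, grey diamonds the NT7.2 pair, green squares separate isolations). mt-Co1 lies at 15.1% to 20.7% in SIT and 29.2% to 36.8% in separate isolations, whereas mt-Nd4 and mt-Cytb lie higher in SIT.

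Whether simultaneous and separate isolations give like counts was tested gene by gene, with 6 SIT against 12 separate libraries and exercise as a covariate (edgeR's quasi-likelihood test, Benjamini-Hochberg adjustment over all 20412 genes tested). All members that were called were higher in SIT. They were 19 of the 21 members tested (all 13 mRNAs, both rRNAs, mt-Te, mt-Tm, mt-Ty and mt-Tt), while 9.38% of all genes tested were called higher and 11.4% lower at an adjusted p under 0.05. At an unadjusted p under 0.05 the count was 20 of 21, against 14.6% of all genes tested that were higher. The median log2 fold change was 2.26 over the 13 mRNAs and -0.01 over all genes tested. With NT7.2.3 and NT7.2.4 included as SIT libraries it was 4.37 over the 13 mRNAs, with a range from 3.78 (mt-Co3) to 4.65 (mt-Cytb), and mt-Co1 was at 3.82. In CPM, 17 of the 21 members, among them all 13 mRNAs and both rRNAs, did not overlap between SIT and separate libraries and lay higher in SIT, as did 2.13% of all genes tested.

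The largest fold changes among the mRNAs and rRNAs belonged to mt-Nd4, a core membrane subunit of complex I, and mt-Cytb. mt-Nd4 (chrM:10167-11544) had 376, 270, 539, 670, 614 and 339 CPM in NT6.303, NT6.304, TG7.4.1, TG7.4.2, NT6.305 and NT6.306, and 52.6 to 111 CPM with a median of 73.3 in the separate libraries. Its log2 fold change was 2.59 ± 0.17 (SE), with an adjusted p of 6.7e-09 in edgeR's test. mt-Cytb had 360, 264, 576, 675, 619 and 344 CPM in the same 6 libraries and 52.1 to 118 in the separate ones, a log2 fold change of 2.50 ± 0.18 (adjusted p = 1.2e-08). For both genes every SIT library lay above every separate library, and TG7.4.2, NT6.305 and TG7.4.1 were the highest. With mt-Nd2 (log2 fold change 2.43 ± 0.18), mt-Nd4l (2.38 ± 0.18), mt-Nd6 (2.34 ± 0.23), mt-Nd5 (2.26 ± 0.19), mt-Atp6 (2.26 ± 0.19), mt-Atp8 (2.24 ± 0.18) and mt-Nd1 (1.95 ± 0.15), the complex I members other than mt-Nd3 and both ATP synthase members were higher in SIT by 3.87-fold or more.

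Among the mRNAs and rRNAs, the smallest differences were those of the complex IV members, the rRNAs and mt-Nd3. mt-Co1 had 427, 352, 529, 998, 694 and 438 CPM in the 6 SIT libraries in the order given above, and 221 to 327 CPM with a median of 268 in the separate libraries. It was thus higher in each SIT library than in any separate one, by a log2 fold change of 1.05 ± 0.16 (2.07-fold, adjusted p = 8.1e-05, edgeR). The other mRNAs and rRNAs of this range were mt-Rnr2 (1.13 ± 0.17), mt-Rnr1 (1.28 ± 0.19), mt-Co3 (1.38 ± 0.16), mt-Co2 (1.40 ± 0.16) and mt-Nd3 (1.56 ± 0.22). Between mt-Nd3 and the next member, mt-Nd1, the log2 fold change stepped up by 0.39, the widest gap between neighbours in the order of the 15. The members of these ranges are interleaved on the genome. mt-Atp8 and mt-Atp6 stand between mt-Co2 and mt-Co3 and changed by 2.24 and 2.26. The ranges of base composition overlapped, with a GC content of 33.0% to 39.9% in the 6 members from mt-Co1 to mt-Nd3 in that order and 31.9% to 41.1% in the other 9. With the chromosome 1 copies added to their members, the same 19 members were called and mt-Co1 changed by 1.05.

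**Figure D4:**
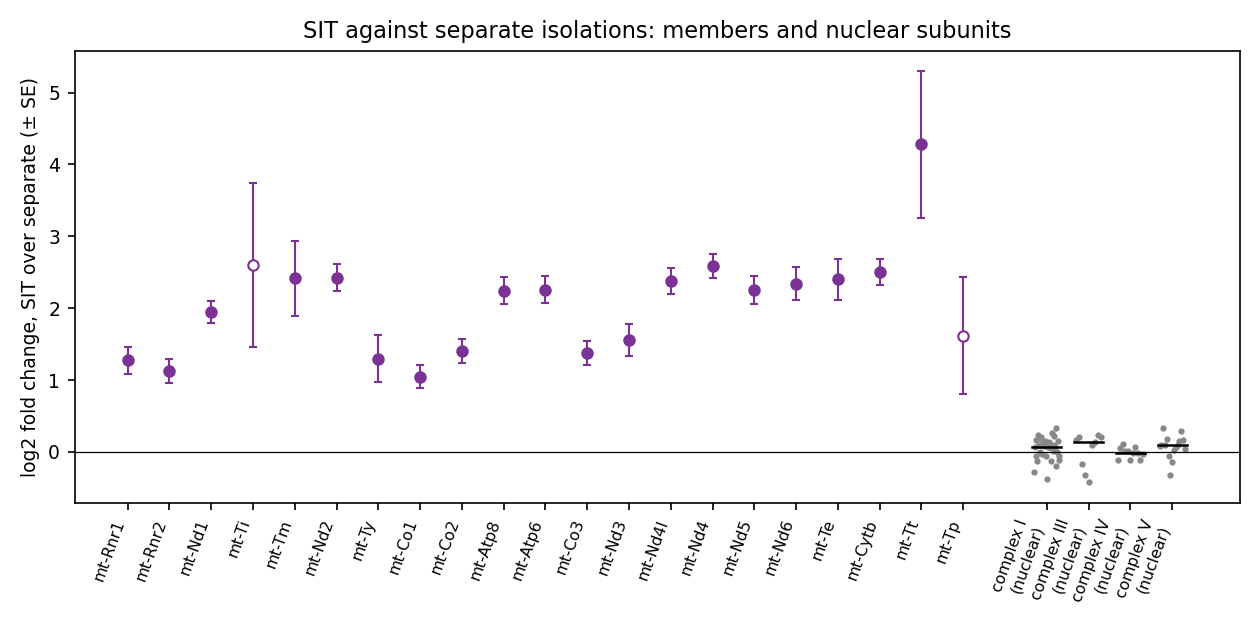
Log2 fold change of SIT over separate isolations with its SE (y axis) for the 21 members tested in genome order (violet; open circles were not called at an adjusted p under 0.05), and for single nuclear-encoded subunits of complexes I, III, IV and V (grey points, black lines at medians). All 21 members lie above 0, from 1.05 for mt-Co1 upwards, and the nuclear subunits lie between -0.42 and 0.34.

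Subunits of the same complexes that are encoded in the nucleus had smaller estimates, on both sides of 0. Of 71 tested, 11 were called higher and 8 lower in SIT, with a median log2 fold change of 0.07 and a range from -0.42 (Uqcrc2, a core protein of complex III) to 0.34 (Ndufc1, an accessory subunit of complex I). Over all genes tested 9.38% were called higher and 11.4% lower, the shares against which these counts and those of the lists that follow stand. With NT7.2.3 and NT7.2.4 included, 1 subunit was called higher and 9 lower, beside 8.47% and 10.0% of all genes tested, and the median was -0.05. For complex IV, 0 of 11 were called in edgeR's test and 1 of 11, lower in SIT, had an unadjusted p under 0.05. Among the 13 genes of mitochondrial transcription and replication, 3 were called higher and 2 lower, among them Polrmt, the mitochondrial RNA polymerase, at -0.50 ± 0.09 (adjusted p = 0.00065) and Tfam, the packaging and initiation factor, at 0.17 ± 0.06 (adjusted p = 0.049). Of 16 genes of mitochondrial RNA processing and decay, 2 were called higher and 3 lower. Lrpprc, which stabilises mitochondrial mRNAs, changed by -0.30 ± 0.08 (adjusted p = 0.011), Pnpt1, a polynucleotide phosphorylase, by -0.58 ± 0.11 (adjusted p = 0.00081), and Grsf1, a mitochondrial RNA-binding protein, by 0.19 ± 0.05 (adjusted p = 0.0041). Of 11 translation factors of the organelle, 1 was called higher and 2 lower.

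Several other measures moved together with the isolation. Its libraries came from different mouse numbers (NT6 and TG7.4 for SIT, TG7.3, TG9.1 and TG9.2 for separate isolations) and from both hippocampi against 1, so that isolation, the mice's numbers and amount of tissue cannot be told apart. In the ELE mice whose numbers begin with TG7, a choice made after seeing the data (TG7.4.1 and TG7.4.2 against TG7.3.1 and TG7.3.2; what the first part of a number stands for is not given in the sources used here), all 19 members tested were higher in SIT. Of these, 9 were called, while 0.0728% of all genes tested were (13 of 17861, edgeR). The 9 were mt-Nd1, mt-Nd2, mt-Nd4, mt-Nd4l, mt-Nd5, mt-Nd6, mt-Cytb, mt-Atp6 and mt-Atp8, with log2 fold changes from 2.47 to 3.28, and mt-Co1 was at 1.49 (adjusted p = 0.17). Cell-type markers also differed. Of 8 astrocyte markers 7 were called lower in SIT, with a summed level of 4405 to 6628 CPM against 6456 to 9432 in separate isolations. Of 5 red blood cell genes 4 were called higher (3.94 to 31.4 CPM in SIT and 2.37 to 11.4 in separate isolations). Of 8 inhibitory neuron markers 3 were called higher, with 88.7 to 132 CPM against 67.3 to 102. Of the 10 excitatory neuron markers 3 were called higher and 3 lower, of 8 oligodendrocyte markers 2 and 1, of 8 microglia markers 0 and 1, of 8 endothelial and mural markers 0 and 2, of 8 choroid plexus markers 0 and 0, and of 7 nuclear-retained RNAs 0 and 1. No marker of the astrocyte or inhibitory neuron lists was at 0 in any library, and at most 1 of the red blood cell genes was. The part of these differences in the change of the members was not tested.

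Few counts fell on the tRNAs in these poly(A)-selected libraries. Of the 22, 11 had a count of 0 in every library (mt-Tv, mt-Tq, mt-Ta, mt-Tn, mt-Ts1, mt-Tk, mt-Tg, mt-Tr, mt-Th, mt-Ts2 and mt-Tl2). A count of 0 allows up to 3 counts in a library, and intervals and limits of this kind cover counting error only. Together the tRNAs held at most 0.294% of the set's counts. mt-Te had the most, 10291 of them over all libraries, and its sequence (chrM:14071-14139, minus strand, 69 bases, directly next to mt-Nd6 on the same strand) is given here as the tRNA that the results rest on.
mt-Te: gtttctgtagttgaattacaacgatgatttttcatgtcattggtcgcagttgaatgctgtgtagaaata
mt-Te had 169, 102, 360, 283, 256 and 185 counts in NT6.303, NT6.304, TG7.4.1, TG7.4.2, NT6.305 and NT6.306 and 13 to 76 in the separate libraries. The groups did not overlap, and the log2 fold change was 2.40 ± 0.29 (adjusted p = 5.7e-06, edgeR), beside 2.34 ± 0.23 for its strand neighbour mt-Nd6. mt-Tm changed by 2.41 ± 0.53 and mt-Ty by 1.30 ± 0.33, both from at most 143 counts in any of the 18 libraries. mt-Tt, at 0 in 1 of the 6 SIT and 9 of the 12 separate libraries, had a fitted log2 fold change of 4.28 ± 1.02 that depends on how zeros are handled. mt-Ti (2.60 ± 1.14, adjusted p = 0.12) and mt-Tp (1.62 ± 0.81, adjusted p = 0.18) were not called. The remaining 5 tRNAs with any count (mt-Tc, mt-Td, mt-Tf, mt-Tl1 and mt-Tw) were too low to be tested.

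ELE was compared with sedentary housing within each kind of isolation, the question for which the libraries were made. In SIT (4 ELE against 2 sedentary libraries), 0 of the 21 members tested were called, as were 0% of the 18556 genes tested. At an unadjusted p under 0.05 it was 0 of 21 members against 3.36% of all genes. Log2 fold changes of the 13 mRNAs ran from -0.20 (mt-Nd3, SE 0.48) to 0.23 (mt-Nd5, SE 0.40), with a median of 0.01 that equals that of all genes tested (0.01). SEs of 0.32 to 0.48 mean that a change of this order could not be detected with these libraries. Of the 13, 7 were above 0, but 0 were in the NT6 mice alone or without TG7.4.2, and all 13 were without NT6.304. Both sedentary libraries came from NT6 mice, whereas the ELE libraries included TG7.4.1 and TG7.4.2. Mouse number and exercise thus cannot be fully told apart here. mt-Co1, with 427, 352, 529 and 998 CPM in ELE and 694 and 438 CPM in sedentary mice, shows the spread: the sedentary values lay inside those of ELE. The member with the smallest p was mt-Ti (log2 fold change 2.52 ± 1.49, adjusted p = 0.9994 in edgeR's test), with 17, 10, 26 and 33 counts in ELE and 0 and 7 in sedentary libraries. It was the only member of 21 whose groups did not overlap, against 14.2% of all genes tested.

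In the left hippocampus (3 against 3 separate libraries) 0 of 18 members were called, and 0% of 17750 genes, with 0 of 18 against 3.94% at an unadjusted p under 0.05 (edgeR). The estimates of the mRNAs ran from -0.28 (mt-Nd3, SE 0.32) to 0.22 (mt-Nd5, SE 0.28). Of the 13, 9 were above 0, but 0 were without TG9.1.4 or without TG9.2.4. The member with the smallest p was mt-Ty, at 1.18 ± 0.58 (adjusted p = 0.96, edgeR), with 36, 24 and 58 counts in ELE and 26, 13 and 11 in sedentary libraries, which overlapped. In the right hippocampus 0 of 18 members and 0% of 17570 genes were called, while at an unadjusted p under 0.05 it was 1 of 18 members against 2.78% of all genes. That member was mt-Nd5, the largest mitochondrially encoded complex I subunit, with 48.2, 51.6 and 50.3 CPM in right ELE and 59.7, 74.8 and 54.7 CPM in right sedentary libraries. The groups did not overlap, as was true of 7.96% of all genes tested here, and the log2 fold change was -0.31 ± 0.12 (adjusted p = 0.9998, edgeR). In the left hippocampus mt-Nd5 had 51.8, 90.3 and 50.5 CPM in ELE and 63.7, 64.7 and 36.8 CPM in sedentary libraries, which overlapped, and in SIT its log2 fold change was 0.23 ± 0.40. Its estimate thus kept no common sign over the 3 comparisons. DESeq2 also called 0 members in each of the 3. Of the 71 nuclear-encoded subunits, 0 were called with ELE in any of the 3. At an unadjusted p under 0.05, 10 were lower and 0 higher in ELE on the left, beside the 3.94% of all genes in either direction, and 0 in either direction in SIT or on the right (edgeR). Their median log2 fold changes were -0.07 in SIT, -0.07 on the left and -0.02 on the right. The SIT median became 0.15 once NT7.2.3 and NT7.2.4 were included.

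**Figure D5:**
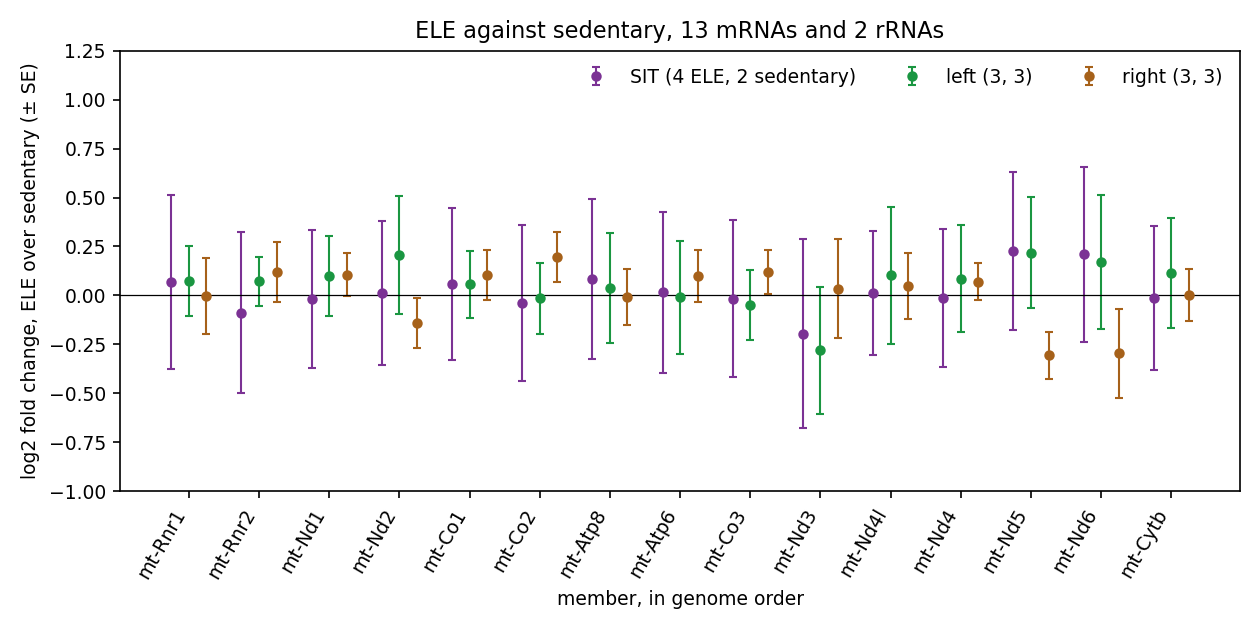
Log2 fold change of ELE over sedentary with its SE (y axis) for the 13 mRNAs and 2 rRNAs in genome order (x axis), in SIT (violet), left (green) and right (brown) separate isolations. The values lie between -0.31 and 0.23 and none was called at an adjusted p under 0.05.

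The choice of libraries decides what the SIT comparison shows for these genes. With NT7.2.3 and NT7.2.4 included as sedentary libraries, all 13 mRNAs were lower in ELE, by log2 fold changes of -4.58 to -3.49 with SEs of 0.96 to 1.21. At an unadjusted p under 0.05 this held for 19 of the 21 members tested, against 5.81% of all genes tested that were lower, and at an adjusted p under 0.05 for 0 of 21, as for 0% of all 17531 genes (edgeR; smallest adjusted p of a member 0.40). ELE and sedentary libraries overlapped for every one of the 21 members. Of these, 11 had a positive estimate without the 2 libraries and a negative one with them.

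Left and right hippocampus did not differ detectably in any member. With exercise as a covariate and 6 libraries a side, 0 of 18 members and 0% of 18810 genes were called (edgeR). At an unadjusted p under 0.05 there were 0 members and 2.49% of all genes. All 13 mRNAs had a slightly higher estimate on the left, by log2 fold changes of 0.08 (mt-Nd5, SE 0.18) to 0.25 (mt-Nd6, SE 0.23) with a median of 0.12, against a median of 0.00 over all genes. These 13 values share the same libraries and their totals, and without TG9.1.4 the estimate was higher on the left for 9 of them. The smallest p was that of mt-Co3, with 0.16 ± 0.11 (adjusted p = 0.99996, edgeR). In CPM mt-Co3 ran from 35.0 to 55.2 on the left and from 36.9 to 47.6 on the right, which overlapped, as did every other member, whereas the sides did not overlap for 0.112% of all genes tested. The interaction of side and exercise was called for 0 of 18 members and 0% of genes, with 0 members and 2.60% of genes at an unadjusted p under 0.05. Its smallest p belonged to mt-Nd5, whose ELE change was higher on the left than on the right by 0.52 ± 0.34 (adjusted p = 0.99996, edgeR).

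NT7.2.3 and NT7.2.4, both SIT sedentary libraries, differed from all others in how much of the set they held. Their mean share was 27.2 times that of NT6.305 and NT6.306. No test was made, since the 2 libraries were chosen for standing apart. mt-Co1 was the gene with the most counts in both, at 23478 and 26491 CPM, while it ranked between 97 and 931 among all genes in the other 18 libraries. The fold over NT6.305 and NT6.306 was not the same for all of the 15 mRNAs and rRNAs. It was largest for mt-Co1 (44.1), mt-Rnr1 (37.5), mt-Rnr2 (37.1), mt-Co2 (36.2) and mt-Co3 (30.1), and smallest for mt-Nd4 (19.2), mt-Nd1 (19.4) and mt-Atp6 (21.2). Those with the largest folds here are those with the smallest differences between SIT and separate isolations above, but both sets of folds use NT6.305 and NT6.306 as SIT libraries and are not independent. The smallest gap among the mRNAs and rRNAs was that of mt-Atp6, which had 12.2 times as many CPM in the lower library of the pair as in the highest of the other 18.

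The pair also differed from the rest in RNAs of other cells and compartments. Nuclear-retained RNAs (7 genes, none at 0) summed to 1765 and 1815 CPM against 147 to 299 CPM in the other 18 libraries. Microglia markers (8 genes) came to 187 and 193 CPM against 7.21 to 15, inhibitory neuron markers to 810 and 840 CPM against 67.3 to 132, and red blood cell genes to 182 and 520 CPM against 2.37 to 31.4. Counts on nuclear protein-coding genes made up 86.3% and 87.7% of all counts in the pair and 96.6% to 98.6% in the others. Astrocyte markers (4812 and 5731 CPM against 4405 to 9432) and choroid plexus markers (511 and 1006 CPM against 19.8 to 1286) lay within the range of the others. The nuclear-encoded subunits of complex I were lower in the pair, with a summed level of 1883 and 1966 CPM in the pair against 2633 to 3115 CPM elsewhere, and likewise those of complex IV with 1571 and 1696 CPM against 2102 to 2560. This was not particular to the respiratory complexes, since the excitatory neuron markers (11447 and 11517 CPM against 13285 to 17007) and the genes of mitochondrial RNA processing and decay (413 and 439 CPM against 519 to 589) also lay below every other library. Of the 16 lists examined, 8 lay below all other libraries, 6 above and 2 did neither. Against nuclear protein-coding counts alone, the members of the pair still came to 9.84 and 11.2 counts per 100, compared with 0.0714 to 0.542 in the other libraries. The part of the non-neuronal and nuclear-retained RNAs in the level of the members was not tested.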

How the data were processed

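Hippocampal TRAP RNA of Emx1-NuTRAP mice was sequenced as 100 base paired-end, poly(A)-selected libraries. The authors aligned reads to GRCm38 with STAR, removed duplicates with Picard and counted fragments over exons by gene with strand considered, and deposited the raw counts, as whole numbers per gene and library. Versions in the submitters' processing notes were STAR 2.7.3a, Picard 1.87, FastQC 0.11.9, R 4.1.0 and DESeq2 1.32.0. How reads with several equally good places were treated is not given in the sources used here. Removal of duplicates bears most on genes with many counts per base, such as mt-Co1 in NT7.2.3 (854 per base).

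Identifiers of 55154 of the 55335 genes were found in GENCODE vM21, of which 54587 with the same version. Columns carry mouse numbers, which were tied to groups through the study's sheet of individual mice. A wild-type table with 24 columns whose names match no label was not used. Replicates were separate mice, and the 24 pairs of libraries within groups differed by far more than sampling noise (mean chi-square per gene 18.9 to 423).

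CPM are deposited counts scaled to the library total, without further normalization. Tests were made with edgeR 4.0.16 (limma 3.58.1, R 4.3.3) on the deposited counts, with TMM normalization, filterByExpr and the quasi-likelihood F test, Benjamini-Hochberg adjustment over all genes tested and an adjusted p under 0.05 as the threshold. Comparisons were ELE against sedentary in SIT, left and right, left against right and SIT against separate isolations with exercise as covariate, and the interaction of side and exercise. Members were named where called, or else by the smallest p. Alternatives were DESeq2 1.42.0, other size factors, no filter, other sets of libraries and added copies. The procedure was tested on simulated data. Copies were found with blastn (at least 99% identity over 200 bases). Shares and composition were described without a test. The genes, gene lists and comparisons were chosen with earlier results of these data known.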

Additional observations from a re-analysis of the deposited data

Results flagged for a closer look

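Of 58 series of values that were tested for a library far from the others, 1 held such a library. A chance rate of 1 in 20 gives 2.9, but many series share the same libraries and are not independent. mt-Nd5 held 11.4% of the 13-mRNA counts in the SIT ELE library TG7.4.1, against 8.60% to 8.71% in the other 3 SIT ELE libraries. The libraries NT7.2.3 and NT7.2.4, which the main comparisons leave out, held 8.64% and 9.64% of their counts on the 37 mitochondrial genes, above every other library.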

How the results depend on the processing

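The count of members called between SIT and separate isolations was 19 to 21 under every alternative except the ELE mice numbered TG7 alone, with 2 libraries a side, where it was 9. That alternative and the adding of the chromosome 1 copies were chosen after seeing the data. The 19 members called kept their direction in all settings in which they were tested (mt-Tt was not in the TG7 mice alone), and their calls whichever library was left out (19 to 19 called). In all ELE, side and interaction comparisons 0 members were called under every setting, the lowest and highest count without any 1 library being 0 and 0. Over all genes, the count called for ELE on the right was 14 with DESeq2 and 27 without a filter in place of 0, and for the interaction 2 and 6, none of them members. With 1 library left out, the count over all genes in the ELE, side and interaction comparisons was at most 3 (ELE on the right without TG9.1.1). Signs of ELE changes that were not called depended on the libraries. With NT7.2.3 and NT7.2.4 included, 11 of 21 members changed sign in SIT (mt-Ti to -1.63), as did 9 of 20 in the NT6 mice alone and 6 to 9 of 21 without any 1 library. On the left it was up to 12 of 18 (without TG9.1.4; 10 without TG9.2.4) and on the right up to 8 of 18 (without TG9.1.3).

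The mean share of counts on the members was 3.67 times as high in SIT as in separate isolations. The ratio was 27.8 with all 20 libraries and 5.12 in the ELE mice numbered TG7, and stayed between 3.26 and 3.98 otherwise. The mean percentage of mt-Co1 was lower in SIT by 15.2 points, and changed to -12.2 points with all 20 libraries.

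The mouse number without its last part (TG7.3, TG9.1 or TG9.2) was tried as a replicate block in the separate isolations. Of 18 pairs of libraries that share it, 3 had deviations correlated above 0.1 (range -0.08 to 0.38), and 6 of 12 libraries correlated best with their own number, so the numbers were not taken as pairing. With the block 0 members were called, and mt-Nd5 on the right changed by -0.29 on the log2 scale. Depth does not limit the mRNAs, which had at least 93 counts in every library, but does limit the tRNAs.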
